A study of Homo sapiens with 6 samples.

Results

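The genes examined here are the transcriptional output of the Hippo pathway in HepG2 cells, a human liver cancer line: the coactivators YAP1 and WWTR1 (which encodes TAZ), the DNA-binding factors TEAD1, TEAD2, TEAD3 and TEAD4, and the target genes CYR61, CTGF, AMOTL2 and ANKRD1. They were chosen by name for their roles and not by a rule on their measured values, though earlier results of these data were known. They make up 10 of the 33791 genes with a value. The series held 6 RNA sequencing libraries, of which 3 came from HepG2 cultures treated with 20 µM atractylon and 3 from control cells without treatment. Atractylon is a sesquiterpenoid of Atractylodes rhizomes, and the study's title names invasion and migration of liver cancer cells as its subject. No treatment time, solvent or culture of origin is given for the replicates. The p-values therefore measure only the spread between these libraries, which may be technical.

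In the Hippo pathway, the kinases MST1 and MST2 (genes STK4 and STK3) activate LATS1 and LATS2, which phosphorylate YAP and TAZ and hold them in the cytoplasm or send them to degradation. Unphosphorylated YAP and TAZ enter the nucleus and bind TEAD factors, which recognise the motif GGAATG and carry the complex to the promoters and enhancers of growth, adhesion and matrix genes. In the liver this pathway restrains organ size, and active YAP is common in hepatocellular carcinoma. The control acts largely on the proteins, so the transcript level of YAP1 or WWTR1 is not a measure of their activity, and target transcripts are the usual readout.

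All 10 genes were detected and passed the filter on low values. None passed an adjusted p of 0.05 in edgeR's quasi-likelihood test, and neither did any of the 12302 genes tested (0%). Without adjustment, 2 of the 10 had p below 0.05 in edgeR, against 196 of all genes tested (1.59%). The pair were CYR61, lower in atractylon-treated cells, and TEAD1, higher in them. DESeq2 and limma on log2(FPKM + 0.5) likewise passed 0 genes, with 102 and 401 genes below an unadjusted p of 0.05, and 0 of the 10 were below it in either tool. Without atractylon replicate 1, the unadjusted count in edgeR was 1319 of all genes tested and 3 of the 10, namely YAP1, CYR61 and ANKRD1, all lower in treated cells. The 10 fold changes were positive for 6 genes and negative for 4, with a median log2 fold change of 0.02, against a median of 0.01 and 46.7% negative over all genes tested. In CPM, which are counts scaled by library size, the treated and control libraries did not overlap for 3 of the 10 genes, TEAD1 (higher), CYR61 and ANKRD1 (both lower), against 703 of all genes tested (5.71%).

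Library totals ranged from 5859575 to 8832092 expected counts. Liver markers were present, since all 8 hepatocyte and HepG2 marker genes were tested, with ALB at 3385 ± 1281 CPM in atractylon-treated cells and 3527 ± 352 CPM in control cells (SD, n = 3 each). Of 7 stromal markers, COL1A2, COL3A1, LUM, DCN and THY1 were at 0 in all 6 libraries, COL1A1 had at most 3 counts in a library, and PDGFRB had 17.5 ± 3.13 CPM in treated cells and 15.2 ± 0.701 CPM in control cells (SD, n = 3 each). Of 5 endothelial markers 2 were tested, and VWF had 11.8 ± 0.757 CPM in treated cells and 10.6 ± 2.43 CPM in control cells. All 4 biliary markers were tested, and KRT7 was low, at 0.240 and 0.298 CPM. KRT19 had 446 ± 69.2 CPM in treated cells and 446 ± 18.6 CPM in control cells. SOX9 had 248 ± 8.14 and EPCAM 67.2 ± 8.95 CPM in treated cells, against 261 ± 44.9 and 65.5 ± 1.91 CPM in control cells (SD, n = 3 each). PTPRC, which defines blood cells, had at most 1 count in any library. Of 5 blood and immune markers 3 were tested, all with positive fold changes, and CD14 did not overlap between groups, with 13.9 ± 0.265 CPM in treated cells and 10.9 ± 1.64 CPM in control cells (SD, n = 3 each). The summed level of the 5 was 45.4 to 58.0 CPM in treated cells and 41.6 to 46.2 CPM in control cells, and its part in the results was not tested. Libraries also differed along a trend with gene GC content. Spearman's correlation between a gene's GC content and its deviation from the mean was -0.60, 0.59 and 0.39 in atractylon replicates 1, 2 and 3, against -0.42, 0.18 and 0.02 in control replicates 1, 2 and 3.

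**Figure D1:**
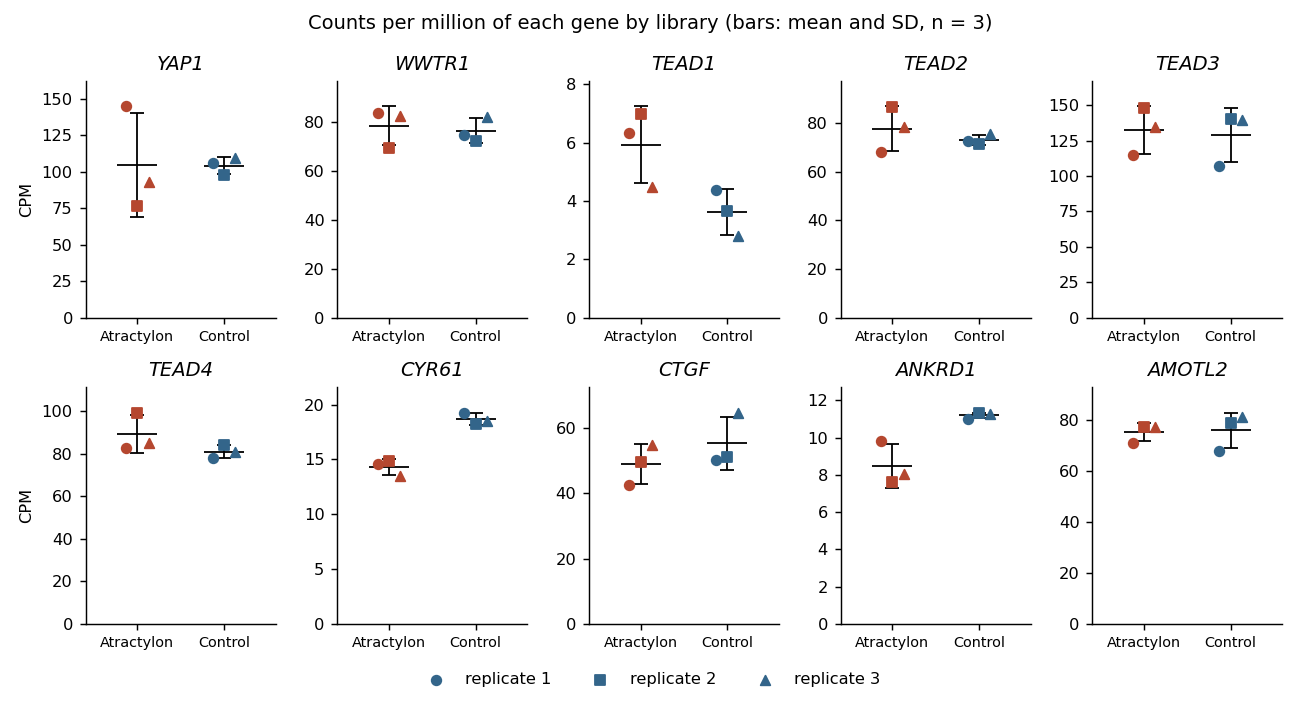
CPM (counts scaled to the library's effective size, y axis, from 0) of each gene in the 3 atractylon-treated and 3 control libraries, with circles, squares and triangles for replicates 1, 2 and 3 and bars for the mean and SD. CYR61 and ANKRD1 lay lower, and TEAD1 higher, in every treated library than in any control library, while YAP1 in treated replicate 1 stood above the other 5 libraries.

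The coactivators had similar mean levels with and without atractylon. YAP1, the main effector of the pathway, had 145, 76.4 and 93.4 CPM in treated cells, against 106, 97.7 and 109 CPM in control cells. The treated libraries lay on both sides of the control libraries. Their mean was 105 ± 35.7 CPM, against 104 ± 5.99 CPM in control cells (SD, n = 3 each), so the treated group varied more while the means differed little. The log2 fold change was 0.01 with a 95% interval of -0.43 to 0.44 (edgeR, adjusted p = 0.9999). Treated replicate 1, the highest for YAP1, was also the library with the strongest negative GC trend, and transcripts of YAP1 average 47.3% GC. With offsets for GC content the log2 fold change was 0.05. Without that library the log2 fold change was -0.30 (edgeR, adjusted p = 0.421), and without control replicate 2 it was -0.05, so the sign depended on single libraries.

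WWTR1 encodes TAZ, the paralogue of YAP. It had 83.5, 69.1 and 82.2 CPM in treated cells, against 74.6, 72.2 and 81.9 CPM in control cells. The groups overlapped, and the log2 fold change was 0.04 with a 95% interval of -0.23 to 0.30 (edgeR, adjusted p = 0.9999).

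Of the 4 TEAD factors, which share the DNA-binding TEA domain, TEAD1 had the lowest level and the highest fold change. TEAD1 had 6.34, 6.995 and 4.47 CPM in treated cells, against 4.38, 3.66 and 2.80 CPM in control cells. These rest on 47.8, 46.1 and 29.5 expected counts in treated libraries and 23.8, 24.3 and 22.7 in control libraries. Every treated library was above every control library in CPM, by a narrow margin between the lowest treated and the highest control library. The same held for 331 of the genes tested (2.69%) in that direction. The log2 fold change was 0.72 ± 0.30 (SE), with a 95% interval of 0.05 to 1.39 (edgeR, adjusted p = 0.9999).

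In FPKM, the count scaled by library and transcript length, the TEAD1 groups overlapped, and none of the 10 genes was higher in every treated library, against 3.19% of all genes tested. TEAD1 had 1.86, 1.85 and 4.18 FPKM in treated cells, against 0.81, 2.09 and 2.74 FPKM in control cells. Transcript models marked as incomplete at an end in GENCODE 29 carried 42.2% of TEAD1 FPKM but 4.95% of its counts. In the models complete at both ends the groups did not overlap, at 1.69, 1.85 and 1.41 FPKM in treated cells and 0.81, 1.11 and 0.95 FPKM in control cells. Nor did those of TEAD4 in complete models. TEAD4 had 54.2, 62.7 and 54.4 FPKM in treated cells and 52.1, 52.7 and 52.6 FPKM in control cells. This measure was added after the data were seen, and the share of all genes was not computed for it. Neither separation can therefore be set against a background. The difference of TEAD1 kept its sign in all 19 alternative fits, at log2 fold changes of 0.34 to 0.88, and the adjusted p was 0.481 or higher in each.

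The other TEAD genes were expressed at higher levels, and their groups overlapped in CPM and in FPKM summed over all models. TEAD2 had 68.0, 86.4 and 78.4 CPM in treated cells, against 72.6, 71.3 and 75.3 CPM in control cells. TEAD3 had 115, 148 and 135 CPM in treated cells, against 107, 140 and 140 CPM in control cells. TEAD4 had 82.8, 99.3 and 85.1 CPM in treated cells, against 77.9, 84.0 and 80.9 CPM in control cells. For TEAD3 and TEAD4, replicate 1 was the lowest library of each group, and for TEAD2 it was the lowest of the treated group. Log2 fold changes were 0.09 for TEAD2, 0.04 for TEAD3 and 0.14 for TEAD4, with standard errors of 0.12, 0.14 and 0.11 in that order.

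The 4 target genes showed the lowest fold changes among the 10. All were negative, and for CYR61 and ANKRD1 the groups did not overlap. The same held, in that direction, for 372 of the genes tested (3.02%). CYR61 encodes a secreted matricellular protein of the CCN family that binds integrins and is an early target of YAP. It had 14.6, 14.9 and 13.5 CPM in treated cells, against 19.3, 18.2 and 18.6 CPM in control cells. Every treated library lay below every control library, also in FPKM, as for ANKRD1 among the 10 genes and for 4.11% of all genes tested, where the values were 7.76, 6.47 and 5.95 in treated cells and 8.83, 8.19 and 8.37 in control cells. The mean was 14.3 ± 0.730 CPM in treated cells and 18.7 ± 0.533 CPM in control cells (SD, n = 3 each), a ratio of 0.766. The log2 fold change was -0.38 ± 0.17 (SE), with a 95% interval of -0.76 to -0.01 (edgeR, adjusted p = 0.9999). An exact permutation test of log2 CPM gave p = 0.1, the smallest that 3 against 3 libraries allow. The same p was given by that test for ANKRD1, TEAD1 and LATS2. Any gene whose groups do not overlap gets this p, so the test restates the lack of overlap and adds no support. The fold change of CYR61 lay between -0.42 and -0.30 in all 19 alternative fits, with a lowest adjusted p of 0.442.

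ANKRD1 encodes an ankyrin-repeat protein that shuttles between sarcomere or cytoplasm and nucleus, and is a widely used YAP target. It had 9.81, 7.59 and 8.04 CPM in treated cells, against 11.0, 11.3 and 11.3 CPM in control cells. These rest on 74, 50 and 53 expected counts in treated libraries and 60, 75 and 91 in control libraries. All treated libraries were below all control libraries, also in FPKM, with 3.90 to 5.33 in treated cells and 5.96 or more in control cells. The log2 fold change was -0.40 ± 0.20 (SE), with a 95% interval of -0.85 to 0.05 (edgeR, adjusted p = 0.9999). It lay between -0.53 and -0.34 in the 19 alternative fits, with a lowest adjusted p of 0.425.

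CTGF, a CCN family matrix protein and profibrotic factor closely related to CYR61, had 42.7, 49.5 and 54.7 CPM in treated cells, against 50.3, 51.1 and 64.8 CPM in control cells. Here the groups overlapped, although each treated library was below the control library of the same rank. The mean was 49.0 ± 6.05 CPM in treated cells and 55.4 ± 8.15 CPM in control cells (SD, n = 3 each). The log2 fold change was -0.18 ± 0.15 (SE), with a 95% interval of -0.51 to 0.15 (edgeR, adjusted p = 0.9999). It was -0.09 without atractylon replicate 1, -0.05 without control replicate 3 and -0.28 at the lowest with 1 library left out. AMOTL2 encodes a scaffold of tight junctions and actin that binds YAP in the cytoplasm, so that it is both a target and an inhibitor of YAP. It had 71.2, 77.2 and 77.3 CPM in treated cells, against 68.0, 78.7 and 81.2 CPM in control cells. The AMOTL2 groups overlapped, and the log2 fold change was -0.02 with a 95% interval of -0.27 to 0.24 (edgeR, adjusted p = 0.9999).

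**Figure D2:**
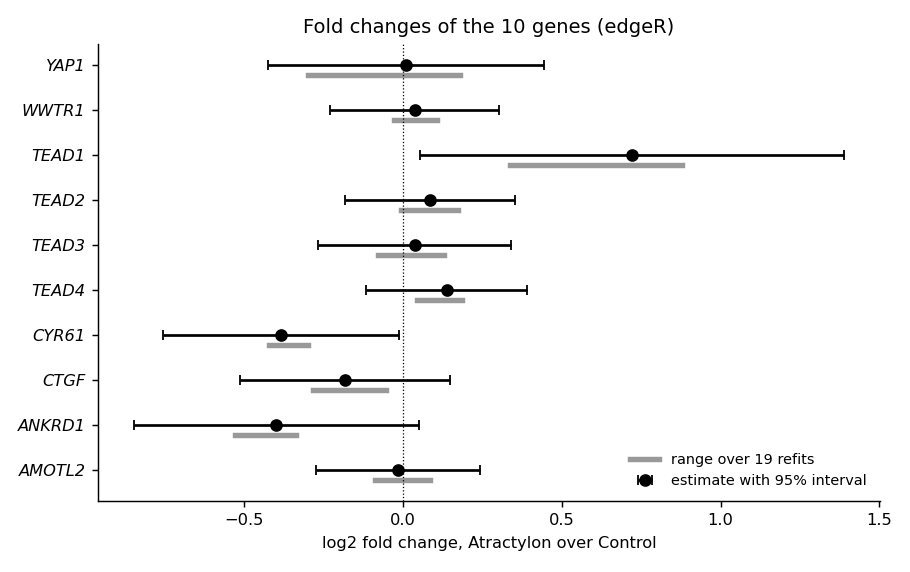
Log2 fold change of each gene (x axis, atractylon over control, edgeR) with its 95% interval as a black line and the range over 19 alternative fits as a grey bar. The intervals of TEAD1 (0.05 to 1.39) and CYR61 (-0.76 to -0.01) lay to 1 side of 0 before adjustment, and the grey bars of TEAD1, TEAD4, CYR61, CTGF and ANKRD1 did not cross 0.

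Promoter sequences of the targets show where the TEAD motif lies in them. Sequences were taken from RefSeq (GRCh38.p14), as the 250 bases before each annotated start on the gene's own strand, for the 7 of 10 genes with an entry. CYR61, TEAD1 and TEAD4 are not shown. The motif GGAATG was searched on both strands, where the reverse strand reads CATTCC, and its matches are in capitals. The first 3 sequences are the targets with a match (CTGF at chr6:131951373-131951622, minus strand, ANKRD1 at chr10:90921088-90921337, minus strand, and the AMOTL2 start at chr3:134374448-134374697, minus strand), and the last is YAP1 at chr11:102110197-102110446, plus strand, the coactivator with a match.
CTGF: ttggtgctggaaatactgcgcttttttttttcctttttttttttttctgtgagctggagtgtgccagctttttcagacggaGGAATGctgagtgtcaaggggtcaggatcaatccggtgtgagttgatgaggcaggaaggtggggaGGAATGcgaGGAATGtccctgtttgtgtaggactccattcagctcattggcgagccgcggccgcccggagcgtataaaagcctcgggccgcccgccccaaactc
ANKRD1: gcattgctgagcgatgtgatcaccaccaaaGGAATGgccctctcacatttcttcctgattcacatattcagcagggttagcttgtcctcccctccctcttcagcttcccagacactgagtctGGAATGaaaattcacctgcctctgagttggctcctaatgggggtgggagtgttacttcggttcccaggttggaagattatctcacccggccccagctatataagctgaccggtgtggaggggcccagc
AMOTL2: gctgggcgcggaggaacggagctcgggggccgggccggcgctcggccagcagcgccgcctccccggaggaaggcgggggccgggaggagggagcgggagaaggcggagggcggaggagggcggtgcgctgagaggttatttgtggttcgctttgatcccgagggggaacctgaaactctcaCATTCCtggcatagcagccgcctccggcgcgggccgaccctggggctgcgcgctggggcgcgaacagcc
YAP1: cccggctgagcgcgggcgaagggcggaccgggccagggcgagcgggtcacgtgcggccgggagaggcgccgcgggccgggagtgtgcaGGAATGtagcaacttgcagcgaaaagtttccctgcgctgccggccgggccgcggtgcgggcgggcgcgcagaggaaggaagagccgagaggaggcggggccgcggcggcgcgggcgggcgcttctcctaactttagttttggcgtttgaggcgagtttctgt

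CTGF held 3 matches, at 169, 104 and 95 bases before the start, and the nearer pair lies close together. ANKRD1 held 2, at 220 and 128 bases before the start, and AMOTL2 held 1, at 69 bases. Among 35116 promoter windows of the same length, 11.9% held at least 1 match, 0.94% at least 2 and 0.083% at least 3. The pattern TGANTCA, with any base at N, was searched on both strands as a loose form of the AP-1 motif. It had 1 match in ANKRD1, which reads TGATTCA, and none in the other windows of the 7 genes, against 6.57% of all windows. CTGF, with the most matches, had a log2 fold change of -0.18, ANKRD1, with 2, had -0.40, and AMOTL2, with 1, had -0.02. YAP1 held 1 match at 162 bases, while the windows of WWTR1, TEAD2 and TEAD3 and the other AMOTL2 start held none.

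Per length, YAP1, TEAD2, TEAD3 and TEAD4 stood above the target genes, and TEAD1 below them. Over all 6 libraries and all transcripts, mean summed FPKM was 66.8 ± 4.45 for WWTR1, 64.8 ± 5.20 for TEAD2, 59.3 ± 5.42 for TEAD4, 43.7 ± 4.69 for TEAD3 and 42.6 ± 8.45 for YAP1 (SD, n = 6). It was 22.9 ± 3.16 for CTGF, 18.1 ± 1.16 for AMOTL2, 7.595 ± 1.138 for CYR61, 5.23 ± 0.955 for ANKRD1 and 2.26 ± 1.13 for TEAD1 (SD, n = 6). Neighbours in that order had ranges that did not overlap only between TEAD4 and TEAD3, between YAP1 and CTGF, and between AMOTL2 and CYR61. The other neighbours could not be separated by their ranges.

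This order depended on which transcript models were counted. Models incomplete at an end held 67.3% of WWTR1 FPKM but 17.2% of its counts, and 51.1% of TEAD2 FPKM but 15.3% of its counts. FPKM divides by length, so a short model weighs more in it than in counts. The model ENST00000485352 of WWTR1, with a length of 503 bases, had 44.3, 34.7 and 43.6 FPKM in treated cells and 35.3, 31.2 and 33.3 FPKM in control cells. With complete models alone, TEAD4 led at 54.8 ± 3.99 FPKM, followed by TEAD3 at 43.7 ± 4.69, YAP1 at 38.3 ± 7.69, TEAD2 at 31.7 ± 2.82, CTGF at 22.9 ± 3.16 and WWTR1 at 21.9 ± 1.85 (SD, n = 6). AMOTL2, CYR61, ANKRD1 and TEAD1 kept the last 4 places, and only these 4 of 10 genes kept their rank.

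**Figure D3:**
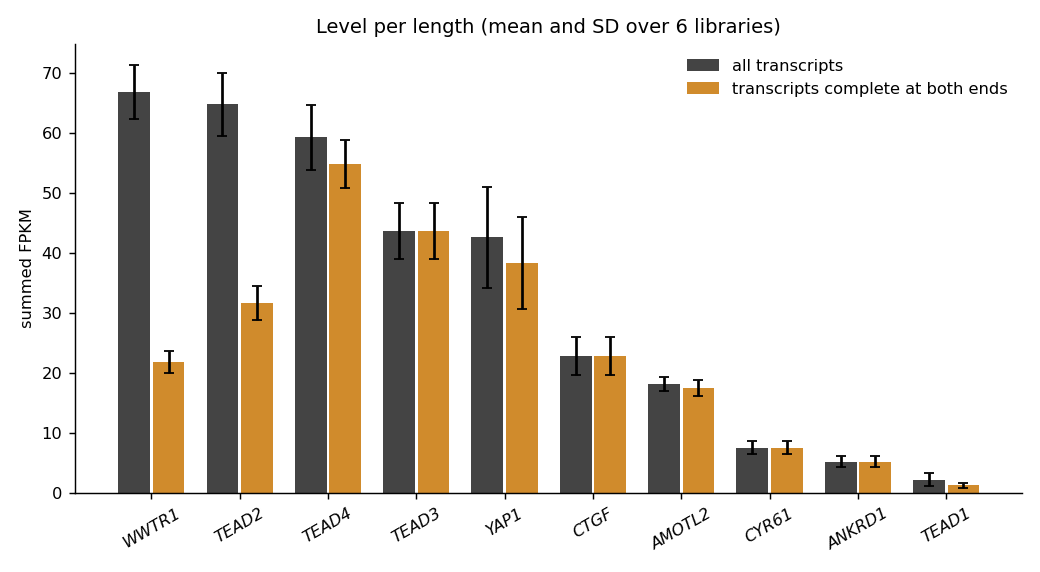
Summed FPKM of each gene (y axis, from 0), as the mean and SD over all 6 libraries, for all transcript models (dark) and for models complete at both ends (orange). WWTR1 stood at 66.8 with all models and 21.9 with complete ones, and TEAD2 at 64.8 and 31.7, while TEAD3, CTGF, CYR61 and ANKRD1 had the same value in both.

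Within the TEAD family, TEAD4, TEAD2 and TEAD3 shared nearly all of the summed TEAD FPKM. With all models, TEAD2 took 38.6% ± 0.515 in treated cells and 37.6% ± 2.16 in control cells, and TEAD4 took 34.8% ± 1.45 in treated cells and 34.9% ± 1.44 in control cells (SD, n = 3 each). TEAD3 took 25.0% ± 0.260 in treated cells and 26.3% ± 2.39 in control cells (SD, n = 3 each). TEAD1 took 1.18%, 0.958% and 2.39% in treated cells and 0.524%, 1.24% and 1.61% in control cells, which overlapped. In complete models alone its share was 1.36%, 1.24% and 1.07% in treated cells and 0.673%, 0.847% and 0.719% in control cells. It was thus a minor paralogue in both groups.

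The deposited table resolved single transcripts, so the coactivators and TEAD factors could be described by isoform. It held 64 of the 68 transcripts that GENCODE 29 gives these genes, of which 49 had counts and 34 a mean of at least 0.5 FPKM. Of 33 tested with edgeR, 0 passed an adjusted p of 0.05 and 0 had an unadjusted p below 0.05, against 1052 of 44393 transcripts tested (2.37%) at that unadjusted p. Reads shared between isoforms are divided by an estimate, so single isoforms are less certain than gene sums. For 3 transcripts the groups did not overlap in FPKM, against 8.67% of all transcripts tested. These were the main CYR61 transcript and the ANKRD1 transcript, both lower in treated cells, and the short incomplete model ENST00000596757 of TEAD2. That model, of 579 bases, had 32.8, 36.1 and 36.03 FPKM in treated cells and 30.6, 29.5 and 32.1 FPKM in control cells.

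**Figure D4:**
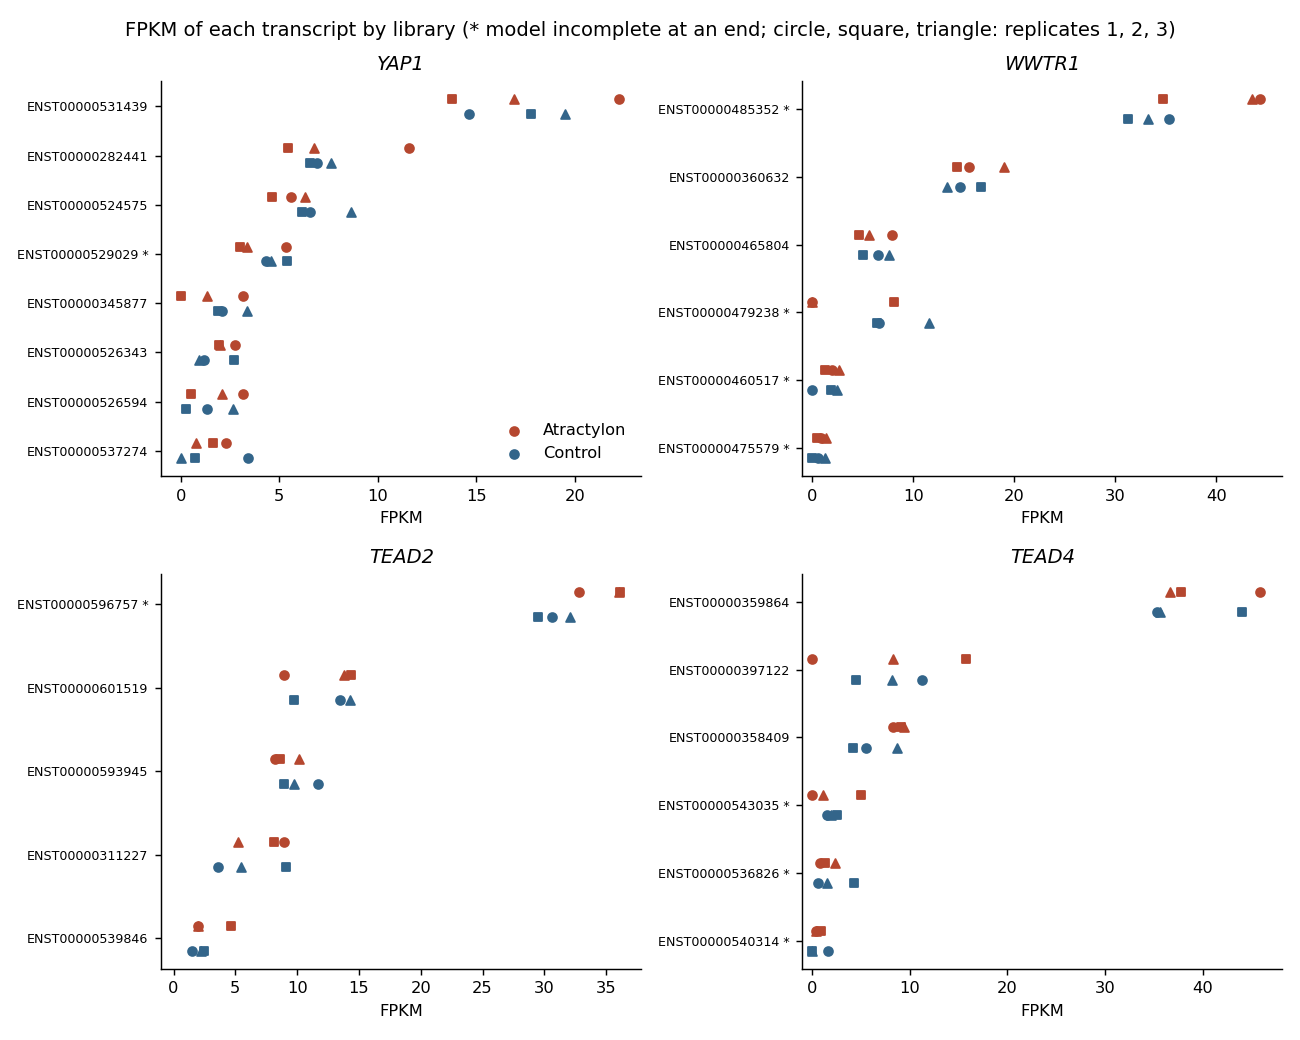
FPKM (x axis) of each described transcript of YAP1, WWTR1, TEAD2 and TEAD4 in atractylon-treated libraries (red, upper row of each pair) and control libraries (blue), with circles, squares and triangles for replicates 1, 2 and 3 and an asterisk for models incomplete at an end. The leading model of WWTR1 (503 bases) and that of TEAD2 (579 bases) carry the asterisk, and the groups overlapped for every transcript shown except the leading one of TEAD2.

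Isoforms of YAP1 and TEAD4 differ in whole exons that encode parts of the protein, and exon skipping was read from the described isoforms, for 3 exons picked after their values were seen. The sequences below are exons that some described isoforms skip, in capitals, with 15 bases of the neighbouring exons of the same transcript in lower case (GENCODE 29, GRCh38, plus strand). The YAP1 exon of 114 bases (exon 4, chr11:102186018-102186131) encodes the second WW domain, which binds PPxY motifs of partners such as LATS and AMOT proteins. The YAP1 exon of 48 bases (exon 6, chr11:102209517-102209564) lies in the region of the transactivation domain. The TEAD4 exon of 129 bases (exon 6, chr12:3017398-3017526) follows the exons for the DNA-binding TEA domain.
YAP1 114-base exon: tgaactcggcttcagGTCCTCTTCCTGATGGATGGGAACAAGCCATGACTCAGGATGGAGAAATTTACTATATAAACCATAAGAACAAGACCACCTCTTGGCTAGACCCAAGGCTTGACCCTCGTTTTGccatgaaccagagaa
YAP1 48-base exon: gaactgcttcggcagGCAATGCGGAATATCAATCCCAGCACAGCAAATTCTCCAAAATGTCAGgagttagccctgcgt
TEAD4 129-base exon: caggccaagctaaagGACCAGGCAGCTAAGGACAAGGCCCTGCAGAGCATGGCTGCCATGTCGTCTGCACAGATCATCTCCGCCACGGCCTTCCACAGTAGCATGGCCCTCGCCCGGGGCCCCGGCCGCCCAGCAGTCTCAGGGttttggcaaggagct

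The 114-base exon was kept in most YAP1 transcripts. Isoforms without it held 10.5%, 6.31% and 8.42% of YAP1 FPKM in treated cells, against 8.08%, 11.1% and 8.98% in control cells. The groups overlapped (exact permutation test, 2-sided, p = 0.5). The 48-base exon was absent from about as much YAP1 FPKM as contained it. Its share was taken over 4 isoforms with it and 3 without it, which left out the retained-intron model ENST00000526594. Isoforms without it held 51.54%, 57.1% and 52.6% in treated cells, against 49.1%, 51.52% and 45.8% in control cells. In this share every treated library was above every control library by a very small margin, with a difference in means of 4.93 percentage points. The exact permutation test gave p = 0.1, the smallest that 3 against 3 libraries allow, and 0.3 after adjustment over the 3 exons compared. With expected counts in place of FPKM the groups overlapped (exact permutation p = 0.6), as they did in FPKM of complete models (exact permutation p = 0.3). They also overlapped when ENST00000526594 was counted in the YAP1 FPKM total. The difference of 4.93 points fell to 3.26 points without atractylon replicate 2 and 3.41 points without control replicate 3.

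The leading YAP1 isoform, ENST00000531439, lacks the 48-base exon. It had 22.3, 13.8 and 16.9 FPKM in treated cells, against 14.6, 17.8 and 19.5 FPKM in control cells. ENST00000282441, which has both exons, had 11.6, 5.44 and 6.74 FPKM in treated cells, against 6.93, 6.56 and 7.62 FPKM in control cells. Both were highest in treated replicate 1, as the gene sum was.

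For the 129-base exon of TEAD4, the share was taken over 3 described isoforms with it and 1 without it. The isoform without it held 15.3%, 13.5% and 16.9% of their summed FPKM in treated cells, against 10.3%, 7.49% and 16.0% in control cells. The highest control library lay among the treated ones, and the other control libraries lay below them (exact permutation test, 2-sided, p = 0.3). The full-length isoform ENST00000359864 had 45.9, 37.8 and 36.7 FPKM in treated cells, against 35.4, 44.1 and 35.6 FPKM in control cells. ENST00000397122, in which translation starts downstream of the exons for most of the TEA domain, had 0.00, 15.7 and 8.33 FPKM in treated cells, against 11.3, 4.50 and 8.23 FPKM in control cells, a spread within groups that covers both.

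The kinases and regulators that act upstream of YAP and TAZ, and the partners that act beside them, were read from gene lists. In the Hippo kinase core and its regulators, 21 of 23 genes were tested and 0 passed the threshold in either direction, with 9 fold changes positive, 12 negative and a median log2 fold change of -0.03. LATS2, a kinase that phosphorylates YAP and is also a YAP target, was the only one of them with an unadjusted p below 0.05. It had 12.2, 13.6 and 10.6 CPM in treated cells, against 14.7, 16.4 and 18.3 CPM in control cells. The groups did not overlap, and the log2 fold change was -0.45 ± 0.19 (SE) (edgeR, adjusted p = 0.9999). Its paralogue LATS1 had 15.9, 12.2 and 12.7 CPM in treated cells and 13.4, 11.0 and 15.5 CPM in control cells, which overlapped.

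The remaining tested genes of that list overlapped between groups in CPM. In FPKM, MAP4K5 and FRMD6, named after their values were seen, were also lower in every treated library, as were 4.11% of all genes tested. For MAP4K5 the highest treated and the lowest control library were at 6.69 and 6.73 FPKM, and its log2 fold change in edgeR was 0.06. FRMD6 rested on 5 to 21 counts in treated libraries and 4 to 26 in control libraries. STK4, the MST1 kinase, had 53.6, 34.1 and 37.2 CPM in treated cells and 50.9, 47.3 and 50.0 CPM in control cells, with its highest value in treated replicate 1 as for YAP1. The adaptors SAV1 and MOB1A, which assemble and activate the kinases, had log2 fold changes of -0.07 and 0.13, and NF2 (merlin), which recruits LATS to the membrane, had -0.03. WWC3, a scaffold of the KIBRA family, had 0.15.

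Among proteins that bind YAP, TAZ or LATS or set YAP stability, 23 of 27 were tested, 0 passed, 0 had an unadjusted p below 0.05 in edgeR, 6 fold changes were positive and 17 negative, and the median was -0.06. The 14-3-3 protein YWHAH, of a family that holds phosphorylated YAP in the cytoplasm, had 94.9, 98.4 and 100.2 CPM in treated cells and 109, 104 and 109 CPM in control cells, which did not overlap. Its relative YWHAG had a log2 fold change of -0.19 with overlapping groups. CSNK1E, a kinase that primes YAP for degradation, had a log2 fold change of 0.14. AMOT, the founding member of the angiomotin family of AMOTL2, was low, at 1.82 to 3.45 CPM in treated cells and 1.29 to 4.33 CPM in control cells.

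Of the TEAD cofactors and AP-1 partners, 10 of 13 were tested and 0 passed, also at an unadjusted p of 0.05 in edgeR, with 6 positive, 4 negative and a median of 0.04. VGLL4, which competes with YAP for TEAD, had 37.7, 36.3 and 43.8 CPM in treated cells and 34.5, 37.4 and 38.4 CPM in control cells, which overlapped. FOS had the highest fold change of the list, a log2 value of 1.33 ± 0.68 (SE), but a level near 1 CPM, with 0.80, 1.37 and 1.36 CPM in treated cells and 0.37, 0.90 and 0.12 CPM in control cells, which overlapped (edgeR, adjusted p = 0.9999). In FPKM it was higher in every treated library, as were 3.19% of all genes tested. The FPKM values were 0.95, 1.18 and 6.77 in treated cells and 0.60, 0.70 and 0.11 in control cells. JUN, the AP-1 partner of FOS, had a log2 fold change of -0.16 and JUND one of 0.09.

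The other genes of a published YAP and TEAD target signature, 13 of 18 tested, were split between directions. Of these, 0 passed in edgeR, 1 had an unadjusted p below 0.05, 6 fold changes were positive and 7 negative, and the median was -0.01. LATS2, described above, was the only one with groups that did not overlap in CPM. FJX1 was also lower in every treated library in FPKM, as were 4.11% of all genes tested. ARHGEF17, a guanine nucleotide exchange factor, had 88.7, 108.1 and 108.1 CPM in treated cells and 81.4, 91.2 and 96.6 CPM in control cells. NUAK2, a kinase, and FJX1, a secreted protein, had log2 fold changes of 0.17 and -0.48 at levels of 6.37 ± 0.146 and 1.26 ± 0.487 CPM in treated cells and 5.59 ± 2.05 and 1.75 ± 0.423 CPM in control cells (SD, n = 3 each), in that order.

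CYR61, CTGF and ANKRD1 are also known as targets of serum response factor and its actin-regulated MRTF cofactors, so targets of that pair were listed too. The motif of that factor (CC, then 6 bases of A or T, then GG) had no match in the promoter windows of the 7 genes. Among all windows, 1.16% held it, and CYR61 had no window. Of 21 genes, 19 were tested and 0 passed, also at an unadjusted p of 0.05 in edgeR, with 11 positive, 8 negative and a median of 0.04. TPM4, an actin-binding tropomyosin, had 195, 180 and 184 CPM in treated cells and 202, 206 and 226 CPM in control cells, which did not overlap in that unit. TPM2 was lower in each treated library in CPM, on 3 to 6 counts in treated libraries and 7 to 9 in control libraries. In FPKM the groups of both overlapped, and the share of all genes tested that were lower without overlap in CPM was 3.02%. The cytoskeletal genes ACTG1 and FLNA had log2 fold changes of 0.13 and 0.12 with overlapping groups. In the CCN family, 2 of 6 genes were tested, CYR61 and CTGF.

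**Figure D5:**
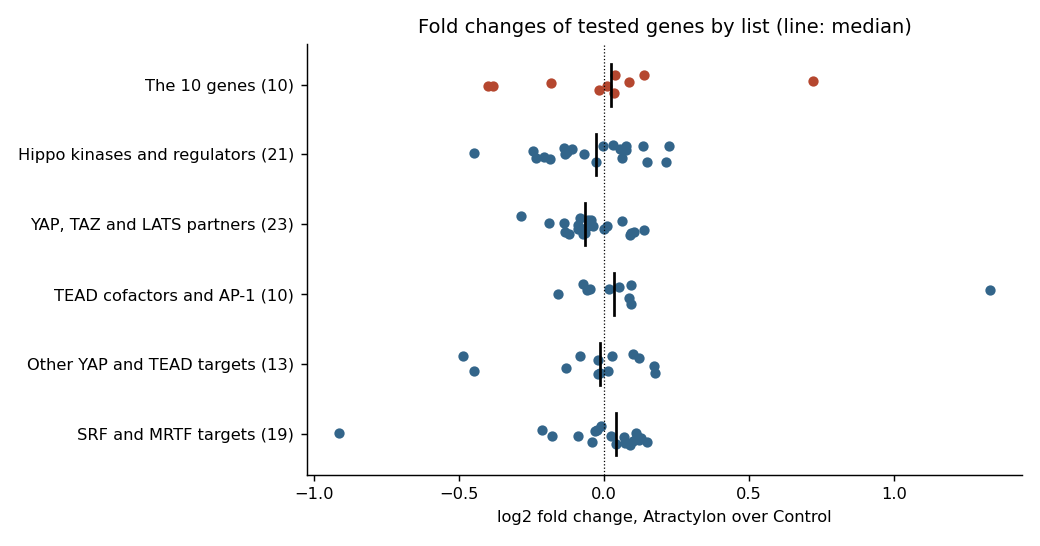
Log2 fold change (x axis, atractylon over control, edgeR) of each tested gene in the 10 genes (red) and in 5 lists of the pathway (blue), with the median as a black line and the number tested in brackets. The medians lay between -0.06 and 0.04, and FOS at 1.33 and TPM2 at -0.91 were the points farthest from 0.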

How the data were processed

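The deposited table listed 180253 transcripts, each with an expected count (an estimated, not always whole, read number) and an FPKM value per library, per the file headers. Per the labels' protocols, a SMART-Seq v4 low-input kit was used. The submitters' processing notes name HISAT2 2.0.1, cutadapt 1.9.1, DESeq2 1.6.3, bcl2fastq 2.17.1.14 and hg19. What program made the expected counts, with which annotation and strand setting, is not given in the sources used here. Amplification from little RNA can bias values by GC content and length.

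Transcripts were matched by identifier to GENCODE 29 (GRCh38); 153245 (85.0%) matched, and the 27008 others, with 8.70% to 9.07% of counts per library, were left out. Because the builds differ, coordinates are those of the sequence sources only. Expected counts were summed per gene and rounded. Genes reaching 0.5 FPKM in 3 or more of the 6 libraries were tested with edgeR 4.0.16 (R 4.3.3; TMM scaling, quasi-likelihood test, 2-sided, Benjamini-Hochberg over 12302 genes). CPM are edgeR's counts scaled by library size and TMM factor. Standard errors come from the quasi-likelihood statistic. limma 3.58.1 on log2(FPKM + pseudocount), DESeq2 1.42.0 and other settings served as alternatives. On simulated counts over 12302 genes, edgeR recovered 91% of genes changed 4-fold and 55% of those changed 2-fold, with 12 false calls among 158. These counts were drawn independently per gene with edgeR's own fitted dispersions and without the GC trends of the libraries. The rates of recovery and false calls in the real libraries may therefore differ. Replicates differed by more than sampling noise, so each counted as 1.

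All 10 genes are named, with their transcripts of mean FPKM of at least 0.5; from each list, the 2 genes of each sign with the smallest p, and STK4, SAV1, LATS1, LATS2, MOB1A, NF2, VGLL4 and AMOT. Some genes that this rule takes are not reported here. The genes, lists and tests were chosen with earlier results of these data known.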

Additional observations from a re-analysis of the deposited data

How the results depend on the processing

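None of the 10 genes passed the threshold under any of 19 alternatives, nor any of their transcripts under 11, and the gene signs of TEAD1, TEAD4, CYR61, CTGF and ANKRD1 held in each. Log2 fold changes near 0 turned sign: YAP1 was -0.0692, -0.0703 and -0.0680 with limma on log2(FPKM + 0.5), log2(FPKM + 0.1) and log2(FPKM + 1), TEAD3 was -0.0270 with GC offsets and -0.0201 with GC offsets and the replicate block, and AMOTL2 was 0.0841 with protein-coding transcripts only. Leaving out 1 library at a time gave -0.30 to 0.18 for YAP1, -0.0143 to 0.11 for WWTR1, -0.0076 to 0.17 for TEAD2, -0.0801 to 0.13 for TEAD3 and -0.0886 to 0.0347 for AMOTL2, and -2.01 to 0.108 percentage points for the 114-base exon of YAP1. Over all genes it gave 0 to 1 lower call, and 1319 genes below an unadjusted p of 0.05 in edgeR without atractylon replicate 1, against 142 to 239 with each of the other libraries left out and 196 with all kept. Without replicate 1 of both groups, 1 gene was higher and 1 lower, 1120 were below that p, and YAP1 was -0.288 and WWTR1 -0.0288. With complete transcript models, 4 of 10 genes kept their rank. Apart from the alternatives' own construction, the cause was not tested. Same-numbered libraries deviated together with r of 0.13, 0.18 and 0.01. With the other control libraries, r was -0.17 and 0.02 for atractylon replicate 1 and -0.13 and -0.04 for replicate 2, lower in each. For atractylon replicate 3, r was nearly level between control replicate 2 (0.02) and control replicate 3 (0.01). These values do not settle whether the numbers pair samples. No culture of origin is given, so the numbers were not taken to do so. With the replicate block, 0 genes passed, 297 had an unadjusted p below 0.05 in edgeR against 196, and YAP1 was -0.0406. Exon shares and level orders were alternatives added after the data were seen. The median SE of a log2 fold change was 0.20, which covers counting error and the spread between libraries together.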
